A study of Mus musculus with 6 samples.

Results

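The genes described here belong to families that are present in many near-identical copies and that are known for a burst of transcription in the 2-cell mouse embryo. They were taken by symbol: every probe set whose platform annotation holds, alone or among several symbols, a name starting with Zscan4, Tdpoz, Pramel, Pramef, Usp17l, Tcstv or Oog, or the name Zfp352. The rule found 89 of the 35556 probe sets of the table, and they carry 53 matching symbols. A single symbol was given for 27 of them, and 62 are shared by several genes and were kept. No symbol on the array started with Pramef. Since copies share probes, some probe sets had the same value on every array to the last deposited digit, and the 89 probe sets hold 73 distinct measurements.

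Mouse embryonic stem (ES) cells, female and of a mixed C57BL/129 background, were measured on Affymetrix Mouse Gene 1.0 ST arrays, 1 array per culture. The 3 Scc1 lox/lox + 4-OHT cultures carried Scc1 alleles flanked by lox sites on both chromosomes, and the 3 Scc1 wt/wt + 4-OHT cultures carried wild-type alleles. Both groups carried ERT2-Cre, a Cre recombinase that acts once 4-hydroxytamoxifen (4-OHT) is given, both had been derived and grown in 2i with LIF on laminin, and both were treated with 4-OHT for 24 h (80 nM in the sample records, the same figure in mM in the design text). The labels do not say how many lines of each genotype were used, so a difference takes in the loss of Scc1 and anything else in which the lines differed. Scc1 is today's Rad21, the gene of the cohesin subunit that bridges the Smc1 and Smc3 heads.

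A small and changing fraction of cells in ES cultures is known to pass through a state that resembles the 2-cell embryo. Such cells transcribe Zscan4, the Tcstv genes, Zfp352, Usp17-like and Tdpoz genes and retroelements, which the transcription factor Dux can switch on and which chromatin silencers hold down in the other cells. Zscan4 proteins are zinc finger proteins linked to telomere maintenance, Tdpoz proteins carry the TRAF and POZ domains of ubiquitin ligase adaptors, and Usp17-like proteins are deubiquitinating enzymes. Pramel and Oog (oogenesin) genes encode leucine-rich repeat proteins of the PRAME family, most of them known from oocytes, early embryos or testis. Pramel6 and Pramel7 are instead known from the inner cell mass and naive ES cells, and Pramel7 as a gene downstream of LIF and Stat3.

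How alike some copies are can be seen just upstream of their genes, in the windows below. Many of the results turn on shared probe sets that cannot tell such copies apart. Pramel6 and Pramel7, which have probe sets of their own, are shown beside them. Probe positions were not used, so these windows do not show why probe sets are shared. Each is 300 bases long, from 250 bases before to 50 after the annotated start, taken from RefSeq on GRCm38.p6, and capitals mark the letters TATAAA on either strand.
Zscan4c, chr7:11005495-11005794, plus strand: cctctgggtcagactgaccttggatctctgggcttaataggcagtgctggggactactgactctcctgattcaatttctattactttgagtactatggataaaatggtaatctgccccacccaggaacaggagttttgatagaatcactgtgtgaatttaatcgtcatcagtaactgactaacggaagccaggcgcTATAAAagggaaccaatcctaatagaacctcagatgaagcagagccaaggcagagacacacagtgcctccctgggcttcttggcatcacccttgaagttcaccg
Zscan4d, chr7:11166099-11166398, minus strand: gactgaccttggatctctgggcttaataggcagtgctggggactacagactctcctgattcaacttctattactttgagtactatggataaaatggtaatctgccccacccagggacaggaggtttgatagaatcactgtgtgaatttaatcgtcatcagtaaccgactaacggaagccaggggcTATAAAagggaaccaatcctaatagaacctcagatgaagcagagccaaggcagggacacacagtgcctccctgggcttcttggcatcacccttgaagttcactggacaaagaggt
Pramel20, chr4:143567217-143567516, plus strand: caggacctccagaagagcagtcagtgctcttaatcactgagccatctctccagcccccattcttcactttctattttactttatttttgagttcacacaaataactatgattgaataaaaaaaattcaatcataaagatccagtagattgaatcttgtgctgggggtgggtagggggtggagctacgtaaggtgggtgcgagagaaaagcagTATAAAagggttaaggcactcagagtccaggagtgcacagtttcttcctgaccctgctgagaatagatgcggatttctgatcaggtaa
Pramel31, chr4:144357714-144358013, plus strand: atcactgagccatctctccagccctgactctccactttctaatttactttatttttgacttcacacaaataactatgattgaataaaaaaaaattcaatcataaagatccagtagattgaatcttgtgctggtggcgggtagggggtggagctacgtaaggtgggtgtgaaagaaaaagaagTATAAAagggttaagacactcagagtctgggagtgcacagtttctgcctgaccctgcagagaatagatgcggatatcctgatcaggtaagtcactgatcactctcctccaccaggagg
Pramel50, chr5:95736124-95736423, minus strand: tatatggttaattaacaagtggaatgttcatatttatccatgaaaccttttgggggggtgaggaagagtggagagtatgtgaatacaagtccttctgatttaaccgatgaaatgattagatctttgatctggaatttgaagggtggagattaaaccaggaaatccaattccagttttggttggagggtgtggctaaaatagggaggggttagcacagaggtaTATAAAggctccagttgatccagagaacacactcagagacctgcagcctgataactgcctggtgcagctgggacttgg
Pramel6, chr2:87506315-87506614, plus strand: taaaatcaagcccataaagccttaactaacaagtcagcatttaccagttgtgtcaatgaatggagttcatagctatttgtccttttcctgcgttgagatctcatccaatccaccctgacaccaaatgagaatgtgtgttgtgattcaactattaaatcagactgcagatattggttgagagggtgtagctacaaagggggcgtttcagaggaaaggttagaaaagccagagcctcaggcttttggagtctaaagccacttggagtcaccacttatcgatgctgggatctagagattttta
Pramel7, chr2:87492369-87492668, minus strand: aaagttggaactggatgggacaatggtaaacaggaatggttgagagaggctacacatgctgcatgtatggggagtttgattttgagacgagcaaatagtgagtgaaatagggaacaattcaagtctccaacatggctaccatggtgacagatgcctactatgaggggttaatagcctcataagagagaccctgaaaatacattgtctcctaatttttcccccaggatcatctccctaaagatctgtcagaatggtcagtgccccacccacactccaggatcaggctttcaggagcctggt

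Over the 289 aligned positions of the Zscan4c and Zscan4d windows, 97.2% were identical, and the pairs among the 4 Zscan4 windows in the table (Zscan4b, c, d and f) ranged from 95.3% to 99.3%. The windows of Pramel20 and Pramel31 were 92.6% identical over 271 positions. Those of Pramel50 and Pramel37 were the same in all 300 letters, and each was 98.3% identical to that of Pramel39. TATAAA, searched on both strands, was found in 4 of the 4 Zscan4 windows and in 17 of the 44 windows of the member genes, and in 13.6% of all 32851 windows of the same length. It was not in the windows of Pramel6 and Pramel7. The letters TTCNNNGAA, a form of the site of Stat factors, were in 5 of the 44 member windows and in 8.3% of all windows. These 5 belong to Tdpoz5, Tdpoz7, Usp17la, Usp17lc and Usp17ld, so the windows of Pramel6 and Pramel7 lacked these letters too.

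The targeted gene was lost in the lox/lox cultures, which checks the labels. Rad21 (probe set 10428561) had log2 intensities of 10.05, 9.99 and 10.01 on the wt/wt arrays and of 6.08, 6.06 and 6.14 on the lox/lox arrays, in the order of replicates 1 to 3 that is kept throughout. The genotypes were far apart, with a log2 change of -3.92 (SE 0.06, limma adjusted p = 4.12e-06). All 10 markers of ES cells lay above the array median, and 3 of them were called lower in lox/lox cells, where 1.38% of all probe sets were. These were Sox2, Fgf4 and Nanog (log2 changes of -0.48, -0.57 and -0.55, adjusted p of 0.0204, 0.0215 and 0.0346). Utf1 went the other way, with every lox/lox array above every wt/wt array, and did not pass (log2 change 0.31, adjusted p = 0.0893). In 8 of the 10 every lox/lox array lay below every wt/wt array, beside 10.5% of all probe sets. An unadjusted p under 0.05 was found in 8, Utf1 among them, beside 14% of all probe sets. The median log2 change of the list was -0.19. None of 12 fibroblast genes and none of 13 trophectoderm and primitive endoderm genes passed in limma. At an unadjusted p under 0.05 there were 3 and 2, beside the same 14% of all probe sets. Array medians lay between 4.85 and 4.94, and pairs of arrays correlated between 0.9892 and 0.9947. On the first component of the spread within genotypes, wt/wt replicate 2 (-0.621) and lox/lox replicate 3 (-0.482) lay on one side and the other 4 arrays on the other, from 0.121 to 0.5, the last being wt/wt replicate 1. Precision rests on 3 arrays per genotype.

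Most probe sets of the 2-cell families had higher values in lox/lox cells, and a few, led by Pramel6 and Pramel7, had lower ones. At an adjusted p under 0.05 over all 35556 probe sets in limma, 19 members were called, where 2.27% of all probe sets were. Of these, 13 members were higher, where 0.897% of all probe sets were, and 6 were lower, where 1.38% were. Counted as distinct measurements these were 10 higher and 5 lower of 73. The higher ones were the 3 Zscan4 probe sets, Tdpoz3 and 9 shared Pramel probe sets, and the lower ones Pramel6, Pramel7 and 4 shared X-linked Pramel3 probe sets. Without regard to the test, 68 of the 89 had a positive log2 change, beside 49.6% of all probe sets, and their median was 0.39 (0.34 over distinct measurements), beside -0.0014 over all. Shared probe sets and those of 1 gene differed in this: the 62 shared members had a median of 0.42, with 51 positive, 12 called higher and 4 lower, and the 27 with a single symbol one of 0.035, with 17 positive, 1 called higher and 2 lower. At the gene level, which holds 26 members, the median was 0.0975. In 57 members all 3 lox/lox arrays lay above all 3 wt/wt arrays, and in 10 they all lay below, where 9.34% and 10.5% of all probe sets did (19.8% in either direction). Much of this came from 1 cluster of near-identical copies. The Pramel probe sets of chromosome 5 were 37 of the 68 positive members and 37 of these 57, and they hold 26 distinct measurements.

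The counts moved with the tested population and with single arrays. Over the 23410 probe sets that have a gene symbol, 34 members were higher (2.63% of that population) and 8 lower (3.43%). Under quantile normalization or cyclic loess there were 8 higher and 6 lower (all probe sets 1.02% and 1.42%, and 0.996% and 1.42%), and with each array centred on its median 8 and 5 (0.689% and 0.889%). Higher calls numbered 4, 3 and 0 without wt/wt replicate 1, 2 or 3 and 1, 5 and 1 without lox/lox replicate 1, 2 or 3, and lower calls 2, 0, 0, 0, 0 and 1 in the same order. Calls over all probe sets fell as well in those fits, from 2.27% to 1.26%, 0.675%, 0.183%, 0.703%, 0.411% and 0.956%. Where limma made 0 calls in either direction, without wt/wt replicate 3, 56 members were higher and 8 lower at an unadjusted p under 0.05. Lower calls were likewise 0 in the fits lacking wt/wt replicate 2, lox/lox replicate 1 and lox/lox replicate 2, with 8, 9 and 8 at an unadjusted p under 0.05. Dropping wt/wt replicate 2 and lox/lox replicate 3 together, a fit added once the data were known, left 0 calls in either direction, with 46 higher and 8 lower at an unadjusted p under 0.05, and 0.00562% of all probe sets were called in it. The share of all probe sets at an unadjusted p under 0.05 was not worked out for the fits that left arrays out. Their unadjusted counts thus have no baseline. With all arrays that share was 14%, beside 56 members higher and 8 lower. Of those 56, 36 were the near-identical Pramel probe sets of chromosome 5. The median of the members lay between 0.34 and 0.41 in all the fits of this paragraph.

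**Figure D1:**
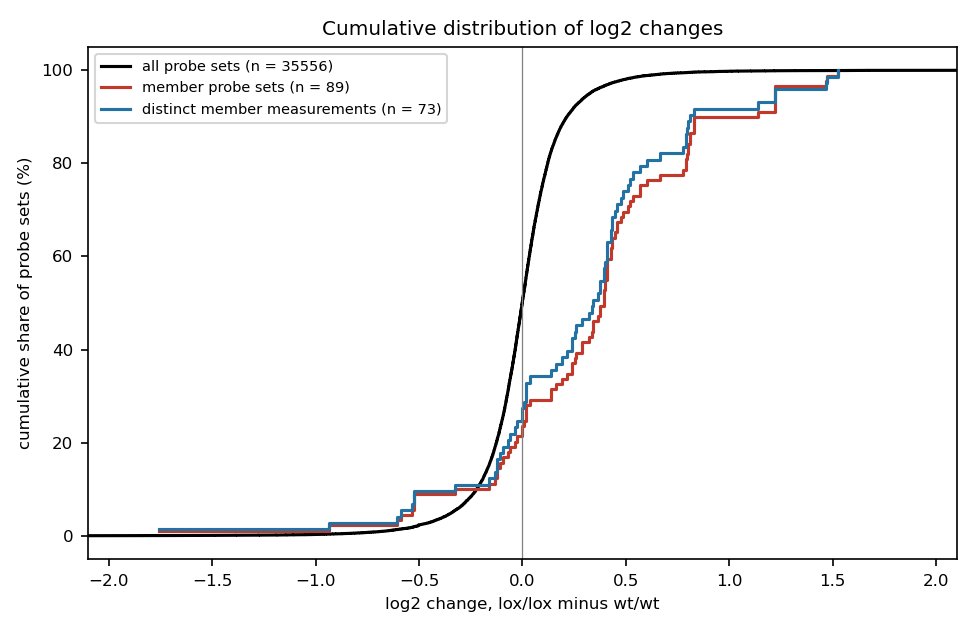
Cumulative share of probe sets (percent) against the log2 change, lox/lox minus wt/wt, for all 35556 probe sets, the 89 members and their 73 distinct measurements. The curve of all probe sets crosses its middle at -0.0014 and that of the members at 0.39.

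**Figure D2:**
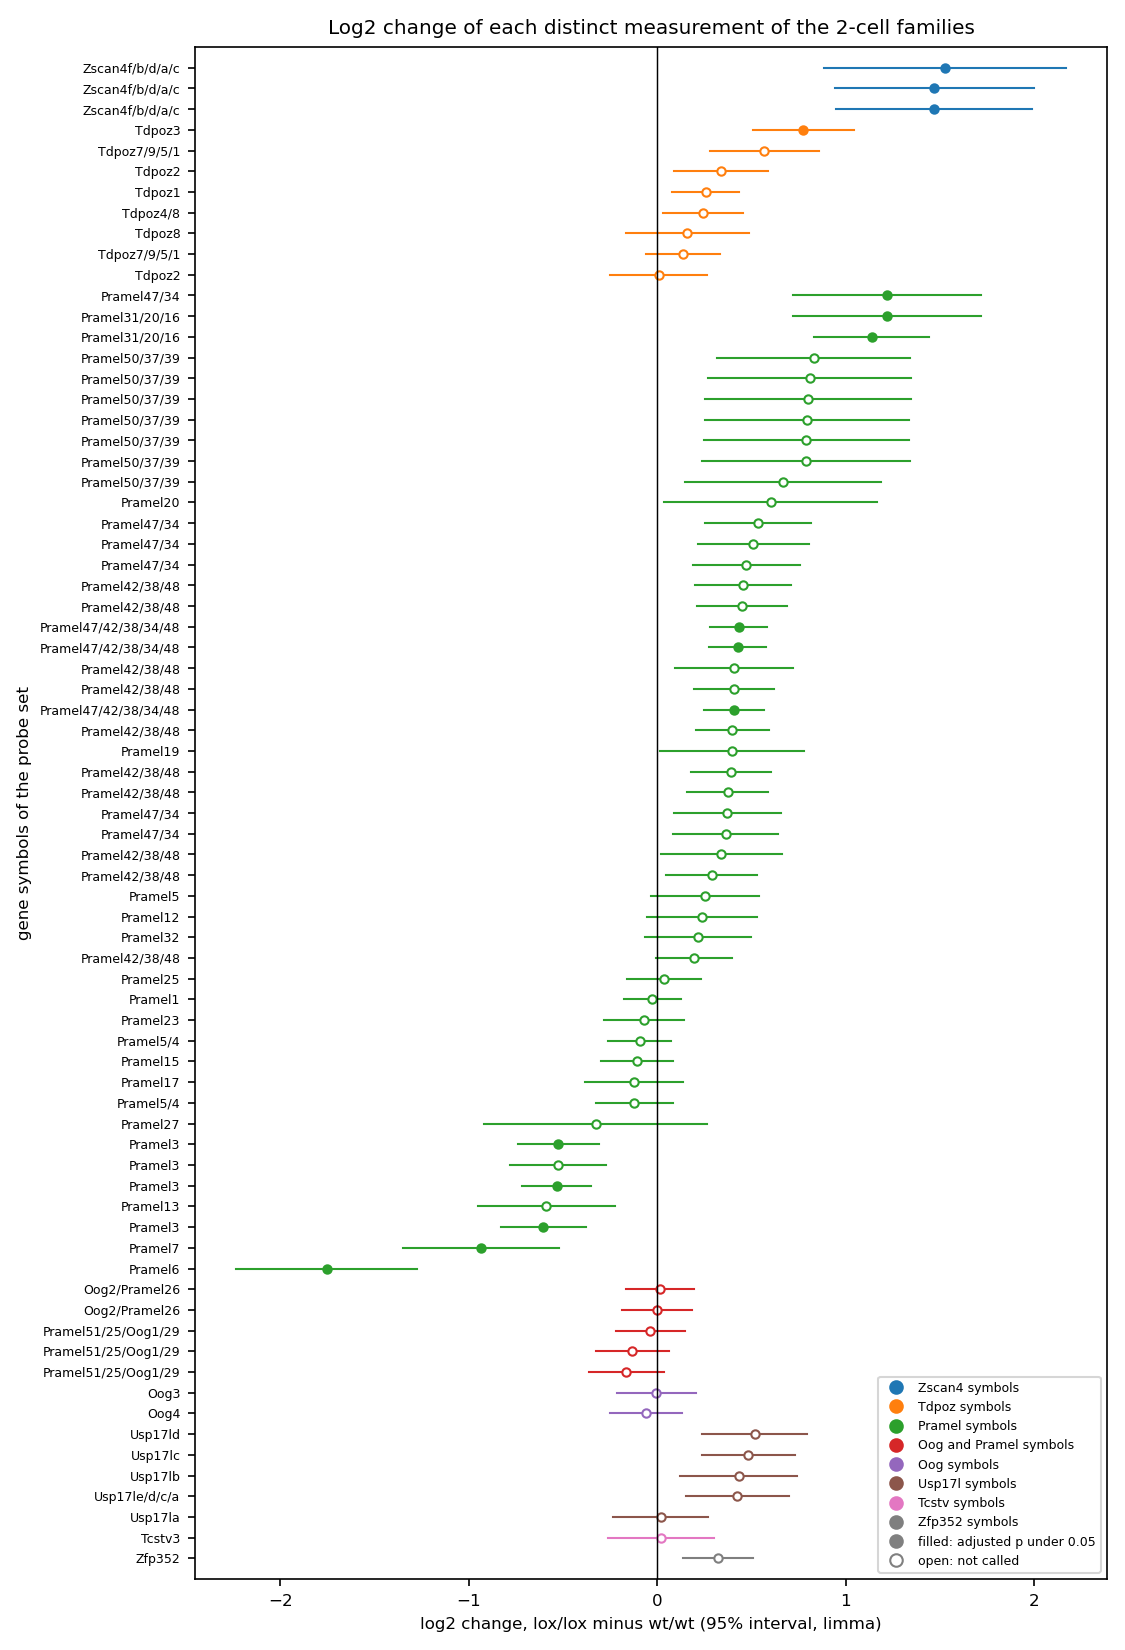
Log2 change (lox/lox minus wt/wt) with its 95% interval from limma for each of the 73 distinct measurements, grouped by family and labelled by the matching symbols of the probe set. Filled points passed at an adjusted p under 0.05: 10 to the right of 0 and 5 to the left.

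Zscan4 showed the largest increase of the families. Its 3 probe sets are each shared by Zscan4a, Zscan4b, Zscan4c, Zscan4d and Zscan4f on chromosome 7, so no copy can be told from another. Probe set 10549972 had values of 6.64, 7.29 and 7.19 in wt/wt and 8.81, 8.16 and 8.54 in lox/lox cultures. Every lox/lox array lay above every wt/wt array, wt/wt replicate 1 was the lowest of all and lox/lox replicate 2 the lowest of its genotype. In lox/lox cells the level was 2.77-fold that of wt/wt (a log2 change of 1.47 with SE 0.22, limma adjusted p = 0.0264). Probe set 10549964 ran from 6.48 to 7.15 in wt/wt and from 8.02 to 8.67 in lox/lox cells, with a log2 change of 1.47 (adjusted p = 0.0278). Probe set 10559978 ran from 6.46 to 7.36 and from 8.23 to 8.86, with a log2 change of 1.53 (adjusted p = 0.0445). These 3 measurements share sequence and are not independent of one another. Their changes stayed between 1.24 and 1.70 when any 1 array was left out, and the calls were kept in the fit without wt/wt replicate 1 (adjusted p of 0.0472, 0.0462 and 0.0473) and lost in the other 5, with adjusted p of up to 0.132 without lox/lox replicate 1. The arrays measured whole cultures, so more cells with Zscan4 RNA and more Zscan4 RNA per cell cannot be told apart.

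**Figure D3:**
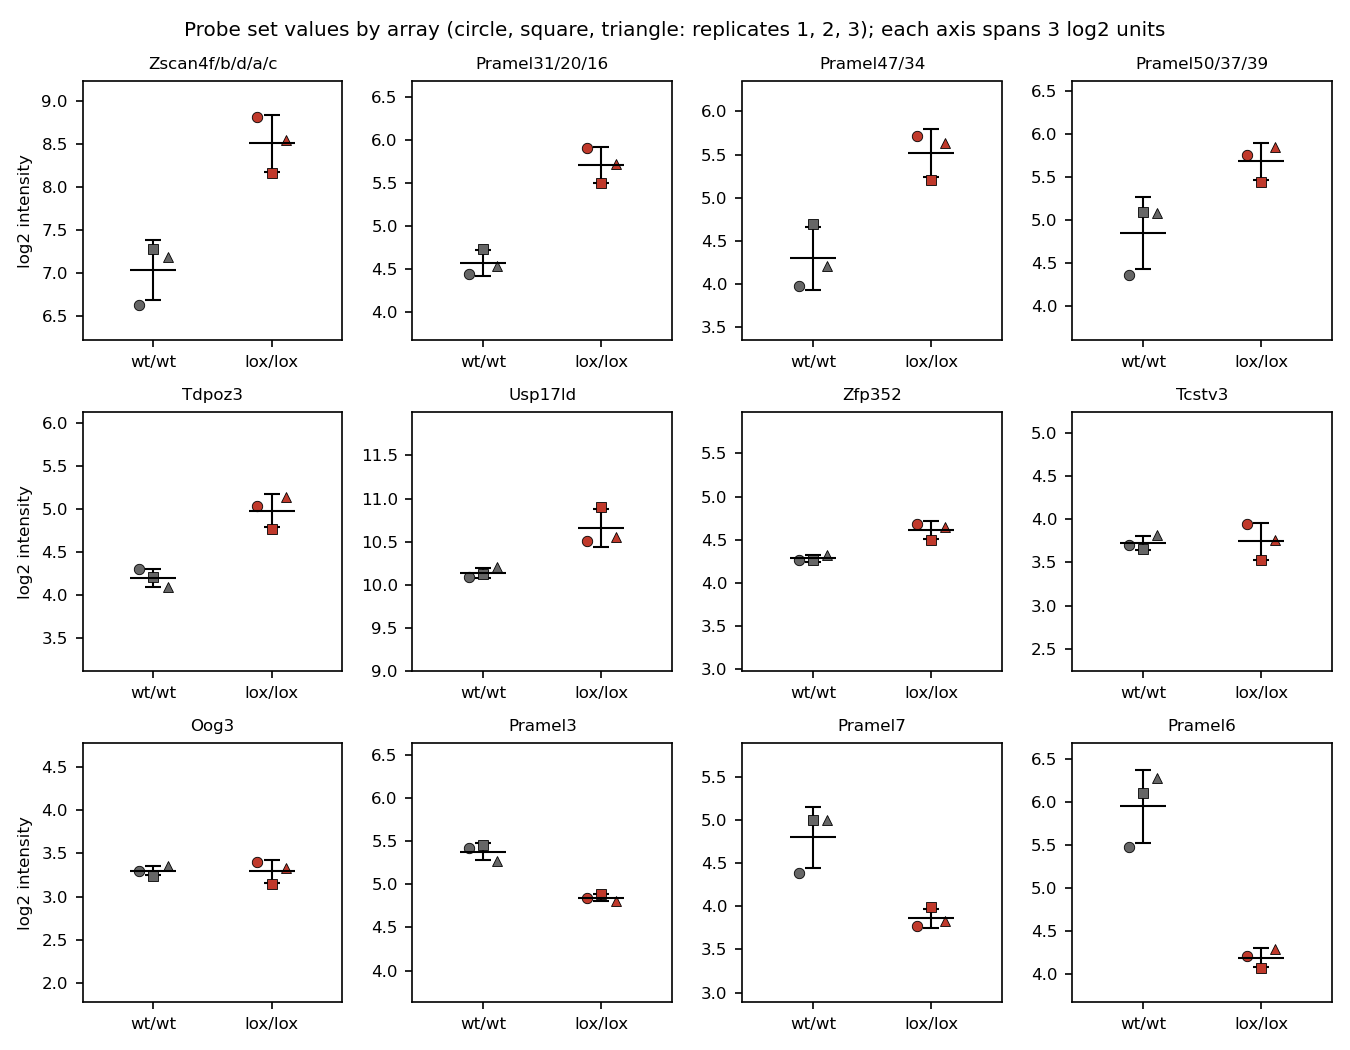
Log2 intensity on each array of 12 probe sets, with symbols for replicates 1, 2 and 3, a line for the mean and bars for 1 SD (n = 3), each axis spanning the same number of log2 units. Zscan4, Pramel16/20/31, Pramel34/47, Pramel37/39/50, Tdpoz3, Usp17ld and Zfp352 lie higher in lox/lox cells on every array, Pramel3, Pramel7 and Pramel6 lower on every array, and Tcstv3 and Oog3 overlap.

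The other genes known as classical markers of the 2-cell-like state, Tcstv3 and Zfp352, were measured by 1 probe set each and neither passed. Tcstv3, whose product is linked to telomere length in ES cells, had values of 3.70, 3.65 and 3.82 in wt/wt and 3.95, 3.53 and 3.76 in lox/lox cultures. The genotypes overlapped, and the log2 change was 0.019 with a 95% interval from -0.26 to 0.30 (adjusted p = 0.969). Zfp352, a zinc finger gene of the early embryo, had 4.26, 4.27 and 4.33 in wt/wt and 4.69, 4.49 and 4.65 in lox/lox cultures. Its arrays did not overlap, with a log2 change of 0.32 (SE 0.08) and an adjusted p of 0.104, or of 0.0419 in the gene-level fit that tests 19938 genes with a probe set of their own. Both probe sets lay below the median of all probe sets of 4.90, where background can keep values up and understate fold changes. Whether it did so here was not tested. No detection calls were used.

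Tdpoz genes, which lie together on chromosome 3, all had positive log2 changes. One of their 10 probe sets, 8 of them distinct, passed. Tdpoz3 stood at 4.30, 4.22 and 4.09 in wt/wt and at 5.03, 4.77 and 5.14 in lox/lox cells. This was a 1.71-fold higher level with no overlap (log2 change 0.78, SE 0.11, adjusted p = 0.0248 in limma). That call was kept without lox/lox replicate 2 (adjusted p = 0.0463) and lost without any other single array, where it reached 0.108 once wt/wt replicate 3 was dropped. The pair of identical probe sets shared by Tdpoz1, Tdpoz5, Tdpoz7 and Tdpoz9 with the larger change went from 4.31, 4.62 and 4.50 to 5.21, 4.86 and 5.07. Its log2 change of 0.57 did not pass (adjusted p = 0.0763). A second identical pair with the same symbols had a log2 change of 0.14 (adjusted p = 0.549), so probe sets named for the same copies differed in size. Tdpoz2 likewise had 0.34 on one probe set and 0.0077 on the other, with adjusted p of 0.204 and 0.987. The remaining members, Tdpoz1 alone, Tdpoz4 with Tdpoz8, and Tdpoz8 alone, had log2 changes of 0.26, 0.24 and 0.16 and did not pass. In 6 of the 10 every lox/lox array lay above every wt/wt array, beside 9.34% of all probe sets.

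Usp17-like genes lie on chromosome 7, away from Zscan4. None of their 5 probe sets passed over all probe sets in limma, and 4 had an unadjusted p under 0.05, beside 14% of all. Usp17ld stood out by its level, at 10.09, 10.13 and 10.21 in wt/wt and 10.51, 10.91 and 10.56 in lox/lox cells, above 96.2% of all probe sets on average. The genotypes did not overlap, and the log2 change was 0.52 (SE 0.12, 95% interval 0.24 to 0.79) with an adjusted p of 0.0873. Usp17lc had a log2 change of 0.48 (adjusted p = 0.0757), Usp17lb one of 0.43 (adjusted p = 0.19), and the probe set shared by Usp17la, c, d and e one of 0.43 (adjusted p = 0.14). In those 4 probe sets every lox/lox array lay above every wt/wt array, beside 9.34% of all probe sets. Usp17la alone was at 3.26 and 3.28 on average, with a log2 change of 0.018 (adjusted p = 0.968). The shared probe set, which also carries Usp17ld, was far dimmer than the one of Usp17ld alone, with a wt/wt mean of 5.26 against a lox/lox mean of 5.68. Probe sets named for Usp17ld thus differed widely in level, and which RNA the brighter one reads was not tested. In the gene-level fit Usp17lc and Usp17ld passed, with adjusted p of 0.0165 and 0.019.

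The Pramel family was the most numerous, with 67 probe sets and 53 distinct measurements, 5 of which also carry an Oog symbol, and it split by chromosome. On chromosome 5, all 37 probe sets (26 distinct) had positive log2 changes, from 0.19 to 1.22. In all 37 every lox/lox array lay above every wt/wt array, beside 9.34% of all probe sets. Only 5 of them passed in limma, while 36 had an unadjusted p under 0.05, where 14% of all probe sets did. A pair of identical probe sets shared by Pramel34 and Pramel47 had values of 3.98, 4.70 and 4.21 in wt/wt and 5.71, 5.20 and 5.64 in lox/lox cells. This was a 2.33-fold difference (a log2 change of 1.22 with SE 0.21, limma adjusted p = 0.0419). The other 5 probe sets with the same symbols had log2 changes from 0.36 to 0.53 and did not pass, so the pair stood alone among them. Only without wt/wt replicate 2 was its call kept (adjusted p = 0.0382), and the adjusted p reached 0.14 without wt/wt replicate 3. It was also lost under the 3 other normalizations, with adjusted p between 0.052 and 0.0619.

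The remaining chromosome 5 calls were 3 probe sets shared by Pramel34, 38, 42, 47 and 48. They were low and tight, between 3.62 and 3.95 on the wt/wt arrays and between 4.09 and 4.36 on the lox/lox arrays. Their log2 changes were 0.41 to 0.43 (adjusted p from 0.0251 to 0.0357), and each call was lost in every fit without 1 array (reaching 0.125 once lox/lox replicate 2 was dropped) and with median centring (adjusted p from 0.0539 to 0.0799). The 16 probe sets of Pramel38, 42 and 48 had a median log2 change of 0.40 and adjusted p of 0.068 or more. Larger, but also more spread, were the 11 probe sets of Pramel37, 39 and 50, with log2 changes from 0.67 to 0.83. Probe set 10535989 of this group had 4.36, 5.09 and 5.08 in wt/wt and 5.75, 5.44 and 5.84 in lox/lox cells, with a log2 change of 0.83 (SE 0.22) that did not pass (adjusted p = 0.127). In all 11, wt/wt replicate 1 was the lowest wt/wt array and lox/lox replicate 2 the lowest lox/lox array, as in Zscan4.

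**Figure D4:**
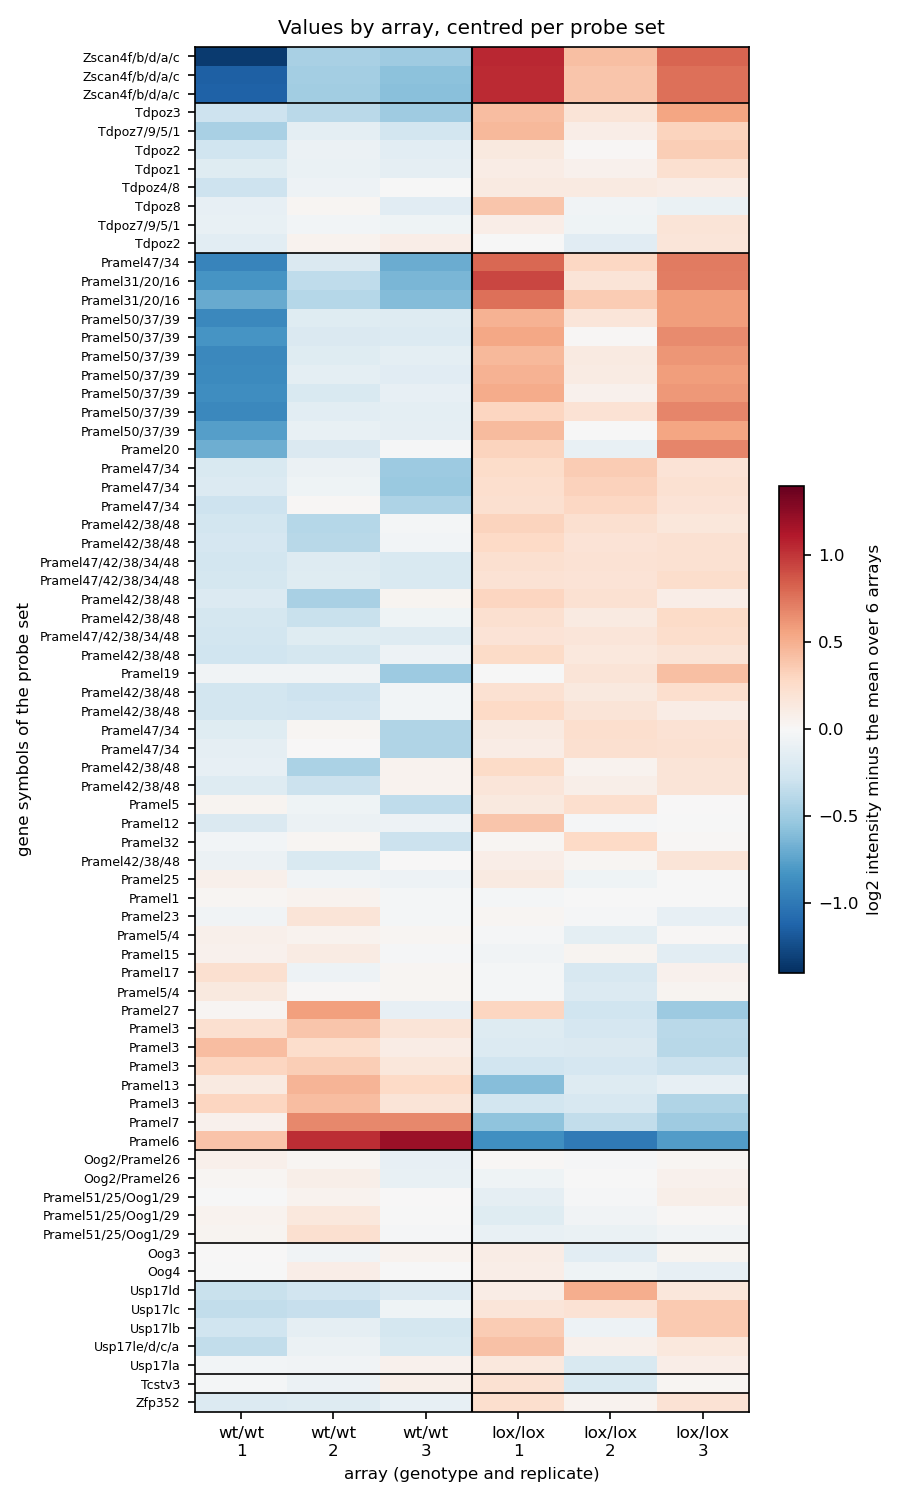
Log2 intensity of the 73 distinct measurements on each of the 6 arrays, minus the mean of that probe set over the arrays, with black lines between families and between genotypes. Zscan4, Pramel16/20/31 and Pramel37/39/50 are lowest on wt/wt replicate 1, and Pramel6 is highest on wt/wt replicate 3.

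On chromosome 4 Pramel and Oog genes sit side by side in a cluster, and the probe sets there went both ways. Probe sets shared by Pramel16, Pramel20 and Pramel31 were higher in lox/lox cells. Probe set 10510112 had 4.44, 4.74 and 4.54 in wt/wt and 5.91, 5.50 and 5.72 in lox/lox cells, a 2.20-fold higher level (log2 change 1.14, SE 0.13) with the smallest adjusted p of all members (0.0109 in limma). It kept its call without any 1 array other than wt/wt replicate 3 (adjusted p = 0.0622). The other 3 probe sets of these genes were 1 measurement, at 4.77, 5.24 and 4.97 against 6.54, 5.78 and 6.32, with a log2 change of 1.22 (adjusted p = 0.0419). That call was kept without lox/lox replicate 2 (adjusted p = 0.0463) and lost without each other array (reaching 0.137 once wt/wt replicate 3 was dropped), and under quantile normalization and cyclic loess (adjusted p of 0.0523 and 0.0512). A probe set of Pramel20 alone had a log2 change of 0.60 and overlapped between genotypes (adjusted p = 0.32).

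In the same cluster, Pramel13 was among the brighter members, at 7.12, 7.47 and 7.28 in wt/wt and 6.40, 6.82 and 6.88 in lox/lox cells. All lox/lox arrays were lower, with a log2 change of -0.59 (SE 0.15) and an adjusted p of 0.127, or 0.0298 in the gene-level fit. Pramel27 (log2 change -0.33) and Pramel12 (0.24) did not pass, with adjusted p of 0.656 and 0.465. Pramel1, 15 and 23 and the probe sets of Pramel4 with Pramel5 had log2 changes from -0.12 to -0.028 and did not pass either, nor did Pramel5 and Pramel25 on probe sets of their own (0.25 and 0.035). The 7 Oog probe sets, 3 of them shared with copies on chromosome 12, had log2 changes from -0.16 to 0.017, with none called and 0 at an unadjusted p under 0.05. Oog3 stood at 3.30, 3.24 and 3.35 against 3.40, 3.15 and 3.33, and its 95% interval ran from -0.21 to 0.20. All 7 Oog probe sets lay below the median of all probe sets, between 2.97 and 3.69 on single arrays. Away from the cluster, Pramel17, Pramel19 and Pramel32 had log2 changes of -0.12, 0.40 and 0.22 (adjusted p of 0.716, 0.34 and 0.501).

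Pramel6 and Pramel7, neighbours on chromosome 2, were lower in lox/lox cells. Pramel6 fell from 5.47, 6.10 and 6.27 in wt/wt to 4.21, 4.08 and 4.29 in lox/lox cultures. The level was 3.38-fold lower (log2 change -1.76, SE 0.20, 95% interval -2.23 to -1.28, adjusted p = 0.0116 in limma), the largest change of any member in either direction. The wt/wt arrays were spread more widely (SD 0.42, n = 3) than the lox/lox arrays (SD 0.11, n = 3), again with wt/wt replicate 1 lowest. Its call held in the fits that lacked wt/wt replicate 1 or lox/lox replicate 3, at adjusted p of 0.00306 and 0.0457. It was lost in the other 4 such fits, and the adjusted p reached 0.0619 once lox/lox replicate 2 was dropped. Pramel7 stood at 4.39, 5.001 and 5.003 in wt/wt and 3.77, 3.99 and 3.83 in lox/lox cells, a 1.91-fold lower level with no overlap. The log2 change of -0.94 (SE 0.17) had an adjusted p of 0.049. It passed without wt/wt replicate 1 (adjusted p = 0.0134), failed without any other single array (reaching 0.158 once wt/wt replicate 3 was dropped), and was lost under the 3 other normalizations (adjusted p from 0.0556 to 0.0662).

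Pramel3, on the X chromosome, was lower in lox/lox cells by a smaller amount. Of its 5 probe sets, which it shares with 4 gene models known by a number or clone, 4 passed. Probe set 10601790 had 5.41, 5.45 and 5.27 in wt/wt and 4.84, 4.88 and 4.81 in lox/lox cells, with a log2 change of -0.53 (SE 0.08, adjusted p = 0.0235 in limma). The others had log2 changes of -0.52 to -0.61, and the 1 that did not pass had an adjusted p of 0.0669. In all 5 every lox/lox array lay below every wt/wt array, beside 10.5% of all probe sets. Yet each call was lost in every fit without 1 array, with adjusted p of up to 0.144 without lox/lox replicate 2. Over 739 X-linked genes the median log2 change was -0.013, and 2.57% were called lower.

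Genes next to the clusters were read from the same fit. Of the 10 measured genes on either side of the Zscan4 cluster, 0 were called in limma, and their log2 changes ran from -0.11 to 0.084. Apart from Clcn4 and Zik1, these were vomeronasal receptor and Nlrp4 genes with no value above 3.77, a level at which a change could hardly show. The 20 genes flanking Pramel6 and Pramel7 ran from -0.16 to 0.091, with 0 called. All were odorant receptor genes, with no value above 4.02, so the same limit holds for them. Among 71 genes lying between Usp17-like copies, mostly dim odorant receptor genes, 0 were called and the median was 0.006. The 20 genes that flank the chromosome 5 cluster had a median of -0.02, with 0 called. Gene order was taken from RefSeq on GRCm38.p6. Within the Tdpoz cluster 1 of 8 other genes was called, S100a11, a calcium-binding protein with a log2 change of 0.85 (adjusted p = 0.0071), and beside the Pramel cluster of chromosome 4 Pdpn, a membrane glycoprotein, was higher by 0.67 (adjusted p = 0.0295). Elsewhere on chromosome 4, Ak4, a mitochondrial adenylate kinase beside Pramel17 and Pramel19, was lower, with a log2 change of -2.38 (adjusted p = 0.00349), the largest of any neighbour read. Jak1, a cytokine receptor kinase in the same flank, and Mllt3, in the flank on the side of Pramel32, were lower too, with log2 changes of -0.51 and -0.43 (adjusted p of 0.0463 and 0.034). The Pramel3 neighbours Armcx2 and Armcx3, X-linked genes with armadillo repeats, were higher, by 1.02 and 0.60 (adjusted p of 0.0261 and 0.0163). These called neighbours were named after their values were seen.

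**Figure D5:**
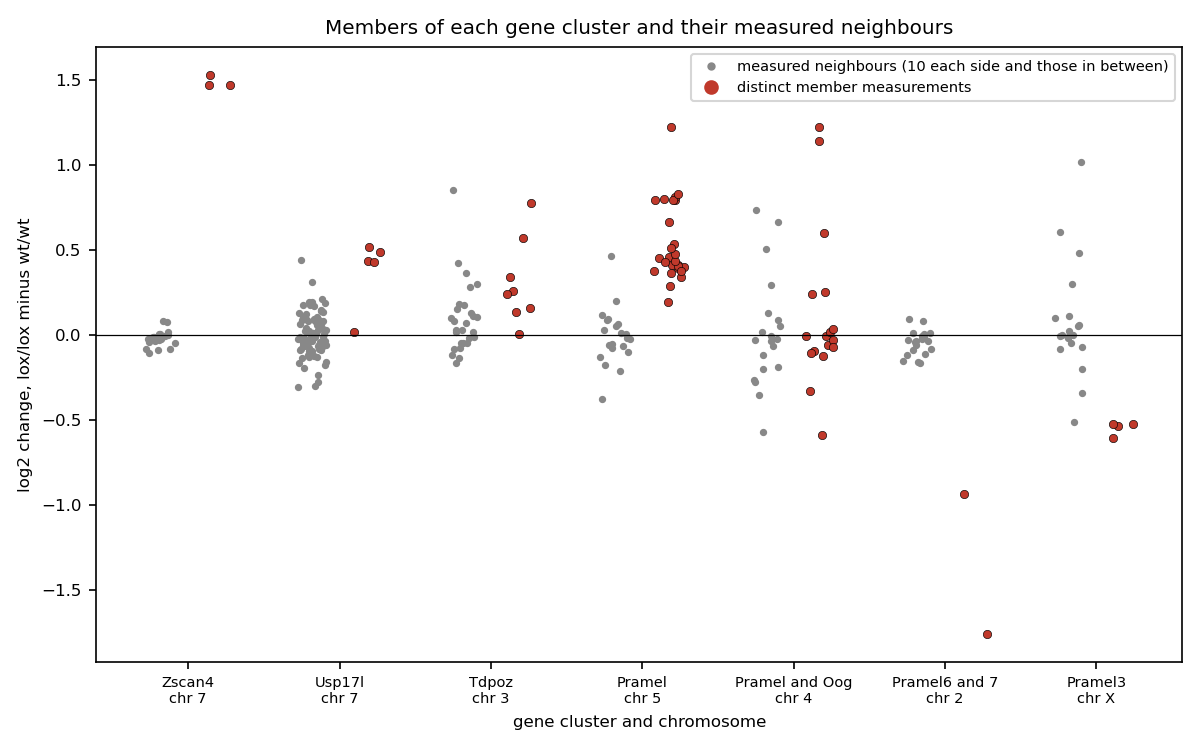
Log2 change (lox/lox minus wt/wt) of the distinct member measurements (red) and of their measured neighbours (grey, 10 on each side and those in between) for 7 gene clusters. The Zscan4 points lie at 1.47 to 1.53 and their neighbours between -0.11 and 0.084. Most neighbours of Zscan4, and all of Pramel6 and Pramel7, are dim genes in which a change could hardly show.

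The arrays ranked alike over many of the higher members. Among the 13 called higher, wt/wt replicate 1 was the lowest wt/wt array in 12 and lox/lox replicate 2 the lowest lox/lox array in 13. These 13 hold only 10 distinct measurements, and several of those share sequence. As the median deviation from the genotype mean, Zscan4 stood at -0.41, 0.26 and 0.16 on the wt/wt arrays and at 0.31, -0.34 and 0.04 on the lox/lox arrays. On the first component over all probe sets, these low arrays scored 0.5 and 0.259. Over all 89 members, wt/wt replicate 1 was lowest in 45 and lox/lox replicate 2 in 56. The same counts were not made over all probe sets, so these have no baseline.

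Of 17 listed 2-cell genes outside the families, 10 had a probe set of their own, and none passed in limma. The median log2 change of the 10 was 0.096. An unadjusted p under 0.05 was found in 3, beside 14% of all probe sets. In those 3 no arrays overlapped: Tmem92, a membrane protein gene, had a log2 change of 0.48 (adjusted p = 0.229), Arg2, a mitochondrial arginase, 0.33 (adjusted p = 0.112), and Nelfa, a subunit of the negative elongation factor, 0.19 (adjusted p = 0.236). Expression of Dux was not read, as it had no probe set of its own.

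Among 37 of 38 listed regulators of the 2-cell-like state, 2 were called higher and 3 lower, beside 0.897% and 1.38% of all probe sets. One of the lower ones was Rad21, the targeted gene, whose loss was set by the design. The median log2 change of the list was -0.068. Lin28a, an RNA-binding protein, had 7.41, 6.998 and 7.28 in wt/wt and 8.67, 8.56 and 8.42 in lox/lox cells, a log2 change of 1.32 (adjusted p = 0.00782). Stag2, a cohesin subunit, was higher by 0.54 (adjusted p = 0.0402). Besides Rad21 the lower ones were Prdm14, a repressor in pluripotent and germ cells, and Tbx3, a T-box factor, with log2 changes of -1.82 and -0.65 (adjusted p of 0.00511 and 0.0209). In 5 regulators every lox/lox array was above every wt/wt array and in 12, Rad21 among them, every one was below. Over all probe sets 9.34% and 10.5% were.

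Oocyte genes were read as well, since many Pramel and Oog genes are known from oocytes. Of 14 measured, 12 lay at or below the median of all probe sets. One was higher, Zp3, an egg coat gene with a log2 change of 1.61 (adjusted p = 0.00231), and 1 lower, Ooep, a gene of the oocyte's subcortical complex with -0.86 (adjusted p = 0.00782). Over all probe sets 0.897% were called higher and 1.38% lower. The summed linear intensity of the list ran from 1113 to 1140 on the wt/wt and from 848 to 908 on the lox/lox arrays. Bmp15, Gdf9, Nobox and Figla, which define oocytes, lay between 3.47 and 4.36 on all arrays. Of 12 germ cell genes, 1 passed, beside 2.27% of all probe sets. It was Piwil2, a partner of small RNAs, which was lower (log2 change -0.43, adjusted p = 0.0346). The summed intensity of these 12 ran from 596 to 637 in wt/wt and from 547 to 681 in lox/lox cells. Summed intensities ran from 3233 to 3647 in wt/wt and from 3835 to 4340 in lox/lox cells for the fibroblast genes, and from 671 to 749 and from 583 to 592 for those of trophectoderm and primitive endoderm. Linear sums weigh bright genes most, and the fibroblast and oocyte sums were carried largely by Vim and Ooep. Vim averaged 11.56 on the wt/wt and 11.80 on the lox/lox arrays, beside 6.14 and 6.37 for Thy1, the next brightest. Ooep averaged 9.78 and 8.92, beside 6.07 and 7.68 for Zp3. The median log2 changes of the fibroblast and oocyte lists were 0.064 and -0.023. These sums therefore cannot show how much of a cell type was present. The part of other cell types in these results was not tested.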

How the data were processed

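Microarrays (Affymetrix Mouse Gene 1.0 ST) of 6 cultures, 3 per genotype, were used. The authors deposited log2 expression values per probe set, and the submitters' processing notes name RMA and affy for this step. Versions, options and the probe set definitions were not found in the labels. RMA keeps dim probe sets near a floor, which can understate their fold changes. Groups and replicate numbers follow the labels, and the design text calls the replicates biological. All 35556 probe sets were fitted with lmFit and eBayes of limma 3.58.1, run in R 4.3.3, for the difference of lox/lox from wt/wt, p-values were adjusted by Benjamini-Hochberg over all of them, and calls were made at an adjusted p under 0.05. The procedure was tested on simulated data.

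Symbols came from the platform annotation, and all 69 symbols on the member probe sets were found in RefSeq by Entrez identifier. RefSeq holds 78 genes that match the rule. Of the 53 on the member probe sets, 43 had a promoter window, and since Tdpoz8 has 2 these make 44 windows. Named were Rad21, all called members, up to 3 members per family with the smallest p, the brightest of each family, all members of families with 4 or fewer probe sets, and up to 4 genes per list by p. Other names complete the account of members and were added after their values were seen. The members and lists were chosen with earlier results of these data known.

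Other normalizations, a filter on dim probe sets, other tested populations, other variance models, array weights, a replicate block and the removal of single arrays were tried. Replicate numbers were not taken as pairs.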

Additional observations from a re-analysis of the deposited data

How the results depend on the processing

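Against 13 members called higher and 6 lower by limma (0.897% and 1.38% of all probe sets), quantile normalization and cyclic loess each gave 8 and 6 (1.02% and 1.42%, and 0.996% and 1.42%), median centring 8 and 5 (0.689% and 0.889%), the filter on dim probe sets 10 and 6 (3.05% and 4.2%), the trended robust fit 14 and 6 (1.16% and 1.76%), array weights 14 and 6 (1.11% and 1.74%), the named probe sets alone 34 and 8 (2.63% and 3.43%), and the gene level, with 26 members, 4 and 3 (2.55% and 3.61%). Leaving out 1 array gave 0 to 5 higher and 0 to 2 lower, and leaving out both wt/wt replicate 2 and lox/lox replicate 3, added after seeing the data, 0 and 0 in limma, with 46 and 8 at an unadjusted p under 0.05. With replicate numbers as a block there were 0 higher and 1 lower (0.124% and 0.219%), with 55 and 8 at an unadjusted p under 0.05. The share of all probe sets at that unadjusted p was not worked out for these fits, so the unadjusted counts have no baseline. Deviations of same-numbered arrays correlated by 0.058, -0.122 and -0.051, so the numbers show no pairing. Among the named members 19 were called, and by count 7 at the gene level, of which Pramel6, Pramel7 and Tdpoz3 were among the 19, 1 under the block, 0 without both arrays and 0 to 6 without 1 array. The median log2 change of 0.39 became 0.80 over the 31 members left by the filter on dim probe sets and 0.0975 at the gene level, and stayed from 0.34 to 0.41 otherwise. Tcstv3 changed sign to -0.0097 with array weights, to -0.084 and -0.017 without lox/lox replicate 1 or wt/wt replicate 2 (up to 0.13 without other arrays), and to -0.023 without both arrays, where Oog4 went to 0.015. Rad21 stayed between -3.96 and -3.90. The causes were not tested. Signal over background may limit the 58 members at or below the median probe set level.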

Other observations

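Genes next to the families that the symbol rule left out, picked after their values were seen, included some with larger differences than the measured members beside them. Whether these genes are further copies of the families was not tested, so Tcstv3 alone cannot speak for its cluster. Between Tcstv1 and Tcstv3 on chromosome 13, AF067061 stood at 3.50, 3.70 and 3.61 in wt/wt and 4.23, 4.06 and 4.47 in lox/lox cells, a log2 change of 0.65 (adjusted p = 0.0468 in limma). BC147527, in the same interval, had 4.12, 4.26 and 4.67 against 5.44, 4.64 and 4.82 and overlapped between genotypes (log2 change 0.62, adjusted p = 0.29).

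Near Oog1 on chromosome 12, Gm5039 stood at 4.60, 4.54 and 4.63 in wt/wt and 5.22, 5.13 and 4.94 in lox/lox cells, with a log2 change of 0.51 (adjusted p = 0.0445 in limma). Gm5662 went from 3.71, 5.44 and 5.17 to 6.64, 5.93 and 6.81, with a log2 change of 1.69 that did not pass (adjusted p = 0.147). Its wt/wt replicate 1 was the lowest array and lox/lox replicate 2 the lowest of its genotype, as in Zscan4.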
